A study of Mus musculus with 12 samples.

Results

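The genes of glycolysis and lactate export were followed through RNA-seq libraries of a mouse Sertoli cell line and a mouse spermatogonial stem cell line. The set was a list of 36 gene symbols chosen for their place in the pathway, from glucose carriers to the kinases that act on pyruvate dehydrogenase, and every row of the deposited table with one of these symbols was taken. Of the 36 genes, 35 had values among the 17995 genes of the table, and Ldhc was not analysed here.

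The study compared cells given short hairpin RNA against the muscarinic acetylcholine receptor M5 (shM5, a mixture of 3 hairpins) with cells given a control hairpin (shNC). There were 4 groups of 3 libraries. C18-4 shNC and C18-4 shM5 came from the C18-4 line, which is described as mouse spermatogonial stem cells, and TM4 shNC and TM4 shM5 came from the TM4 line, described as mouse Sertoli cells. All the cells were transfected with hairpin, C18-4 cells were grown in DMEM/F12 and TM4 cells in DMEM, both with fetal bovine serum, so line and medium cannot be told apart. Each cell type is represented by 1 established line. The labels do not say whether the 3 libraries of a group came from separate cultures, and p-values measure only the spread between these libraries.

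Glycolysis takes up glucose through Slc2a carriers, traps it with hexokinase and splits it into triose phosphates, which are then oxidised to pyruvate. Lactate dehydrogenase turns pyruvate into lactate, and the proton-coupled carriers Slc16a1 (MCT1) and Slc16a3 (MCT4) move lactate across the plasma membrane with the help of their chaperone basigin (Bsg). In the seminiferous tubule, Sertoli cells are known for taking up glucose and releasing lactate, which germ cells use as fuel. Pyruvate dehydrogenase instead sends pyruvate to the mitochondrial citric acid cycle, and the Pdk kinases switch it off.

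Values are RPKM, that is reads scaled to gene length and to the size of the library. RPKM is per length, so levels of different genes can be set side by side. Chrm5, the gene of M5, was listed at 0 or 0.01 RPKM in all 12 libraries, so the knockdown could not be checked from these values. Summed RPKM ran from 506413 to 540231 per library, and the value of 1 read, estimated from 460 genes, differed between libraries by relative factors of 0.972 to 1.024. Of 13 Sertoli cell markers with values, 6 had a mean of at least 1 RPKM in TM4 cells, among them Kitl, Gata4 and Sox9 (1.11 to 1.74), while Amh, Cldn11 and Wt1 did not exceed 0.19 RPKM. C18-4 cells also had 6, with Wt1 at 53.9 to 72.3 RPKM. Of 13 spermatogonial markers, Uchl1, Id4 and Etv5 reached 1 RPKM in C18-4 cells, and Ddx4, Dazl and Zbtb16 did not exceed 0.05. In TM4 cells only Etv5 reached it, at 5.98 to 7.49 RPKM against 1.63 to 2.29 in C18-4 cells. The lines are therefore called by their names. Of 6 Leydig cell markers, 0 had a line mean of 1 RPKM or more, and the highest single value was 1.02 (Star in a C18-4 shM5 library). Fibroblast or peritubular markers were present in both, 6 of 9 genes in C18-4 cells and 7 of 9 in TM4 cells, with summed levels of 501 to 699.8 and 1385 to 2033 RPKM.

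The libraries of a group were not equally alike. Over the 31 set members tested in TM4 cells, TM4 shNC replicate 3 lay 0.69 and 0.74 log2 units (root mean square) from the other two TM4 shNC libraries and 0.09 to 0.17 from the TM4 shM5 libraries. Summed RPKM of 8 amino acid stress genes showed the same split, with 1951, 1950 and 959.97 in TM4 shNC and 902, 902 and 909 in TM4 shM5. In C18-4 cells, replicate 3 of both groups stood apart, with sums of 1375 and 1320 for these stress genes against 885 to 915 in the other libraries. The sum of Sertoli cell markers moved with the same split, at 77.01, 73.98 and 37.9 RPKM in TM4 shNC and 31.0, 31.3 and 35.4 in TM4 shM5. Kitl, Gata4 and Gdnf carried this. Sox9 showed no such split (1.74, 1.13 and 1.19 in TM4 shNC, 1.17, 1.11 and 1.43 in TM4 shM5). Inha was higher in TM4 shNC replicate 3 (2.35) than in replicates 1 and 2 (1.73 and 1.68). Only the labels place replicate 3 among the shNC libraries. That label may be wrong, Chrm5 could not check it, and every TM4 shNC mean and TM4 effect of shM5 with all libraries rests on it. Line differences of the set, and counts of calls that use TM4 shNC, are therefore given with all libraries and, beside them, without replicate 3. That library stands apart by the very values compared, so counts without it show how far a result rests on 1 library.

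The promoters of the lactate dehydrogenases and lactate carriers are shown because these genes close the pathway and hold the largest line difference of the set on the log2(RPKM + 0.1) scale (Slc16a3). Each sequence is the 250 bases before the start site from RefSeq (GRCm38.p6), and capitals mark ACGTG or GCGTG, the core letters of hypoxia response elements, on either strand (CACGT and CACGC on the opposite strand; CACGTG holds the core on both strands). Ldha has 2 start sites in the table and the first listed is shown.
Ldha, chr7:46845554-46845803, plus strand: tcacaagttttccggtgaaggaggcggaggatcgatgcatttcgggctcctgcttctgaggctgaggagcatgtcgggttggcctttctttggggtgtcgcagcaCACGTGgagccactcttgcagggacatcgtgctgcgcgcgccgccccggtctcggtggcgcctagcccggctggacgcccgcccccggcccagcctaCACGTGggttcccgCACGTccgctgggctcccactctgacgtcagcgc
Ldhb, chr6:142507958-142508207, minus strand: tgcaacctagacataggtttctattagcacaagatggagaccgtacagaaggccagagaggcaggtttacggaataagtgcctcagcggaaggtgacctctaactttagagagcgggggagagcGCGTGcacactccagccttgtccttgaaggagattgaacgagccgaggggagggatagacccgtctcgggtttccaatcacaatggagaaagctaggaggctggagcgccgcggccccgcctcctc
Slc16a1, chr3:104638414-104638663, plus strand: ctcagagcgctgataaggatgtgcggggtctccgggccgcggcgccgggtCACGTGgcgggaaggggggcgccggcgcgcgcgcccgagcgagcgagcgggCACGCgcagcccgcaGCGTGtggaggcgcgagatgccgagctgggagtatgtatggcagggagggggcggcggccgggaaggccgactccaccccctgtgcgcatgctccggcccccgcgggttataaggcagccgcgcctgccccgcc
Slc16a3, chr11:120948817-120949066, plus strand: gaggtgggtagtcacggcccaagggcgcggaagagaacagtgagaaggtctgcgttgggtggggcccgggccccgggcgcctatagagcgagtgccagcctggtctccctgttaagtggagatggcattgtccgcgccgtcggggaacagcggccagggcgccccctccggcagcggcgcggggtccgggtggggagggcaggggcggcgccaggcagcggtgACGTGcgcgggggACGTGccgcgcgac
The Ldha sequence held 5 such matches counted by strand, Slc16a1 held 4, Slc16a3 held 2 and Ldhb held 1. In Slc16a3 the matches began 27 and 14 bases before the start. Promoter windows of 300 bases, 250 before and 50 after the start, were found for 32 of the 35 genes, 51 windows in all. ACGTG or GCGTG was present in 38 of these 51 windows (74.5%) and in 43.8% of all 32851 windows of the table. ACGTG alone was in 43.1% against 19.6%, GCGTG alone in 54.9% against 32.4%, and the E-box CACGTG, which contains ACGTG, in 11.8% against 7.15%. TGATGNAAT, the letters of an amino acid response element, was in 0 of the 51 windows and in 0.965% of all windows. By gene, ACGTG or GCGTG was present for 28 of the 32 genes (87.5%) and for 46.7% of all 27025 genes with windows. Both cores hold the letters CG, and the CG content of the windows was not compared. These shares describe letters and not bound sites.

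The 35 genes together took 1.57% to 1.58% of summed RPKM in C18-4 shNC, 1.39% to 1.49% in C18-4 shM5, 2.26% to 3.10% in TM4 shNC and 2.83% to 3.05% in TM4 shM5. Gapdh made up 39.9% to 44.9% of the summed level of the set in every library. The 9 highest levels in every library were those of Gapdh, Pkm, Eno1, Pgk1, Pgam1, Ldha, Aldoa, Tpi1 and Bsg. Levels of some of these are uncertain. In the GENCODE M21 transcripts, 83.8% of the 35-base words of Gapdh, 76.2% of those of Eno1 and 68.2% of those of Pgk1 also occur in transcripts of other genes, and the shares were 46.5% for Pkm, 42.0% for Pgam1, 39.1% for Pdhb, 38.1% for Ldhb, 30.4% for Ldha, 28.9% for Aldoa and Gpi1, 26.0% for Pfkfb2 and 15.1% for Tpi1. The alignment option stated in the methods (-r 2) is the one that reports every equally good place of a read, and how such reads were then counted per gene is not given in the sources used here. No word of Slc16a1, Slc16a3, Bsg, Slc2a1, Slc2a3, Hk1, Aldoc, Pfkm or Pfkp was shared.

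**Figure D1:**
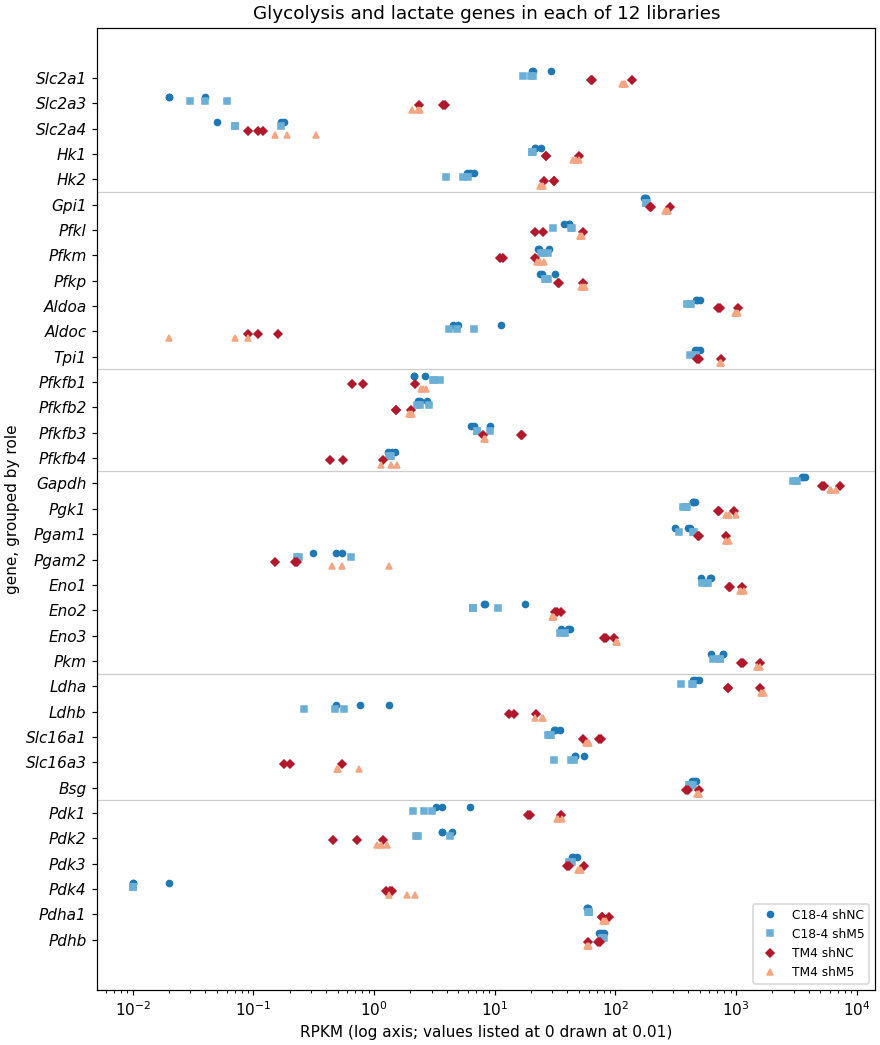
RPKM of the 35 genes in each of the 12 libraries on a log axis, grouped by role from glucose entry (top) to pyruvate dehydrogenase (bottom), with 1 point per library and values of 0 drawn at 0.01. Slc16a3 and Aldoc lie far to the left in TM4 cells, Slc2a3, Ldhb and Pdk4 far to the left in C18-4 cells, and 1 of the 3 TM4 shNC points lies with the TM4 shM5 points for most genes.

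The lines differed at most steps. In shNC cells, 33 of the 35 genes could be tested, and 21 were higher and 7 lower in TM4 than in C18-4 cells at an adjusted p below 0.05, beside 25.6% of all 11773 genes higher and 40.0% lower. In shM5 cells, 21 were higher and 4 lower, beside 24.2% and 37.0% of all genes. The median log2 difference of the 33 genes was 0.66 in shNC and 0.998 in shM5 cells, against -0.15 and -0.12 over all genes tested. Without TM4 shNC replicate 3 the shNC counts were 21 higher and 10 lower with a median of 0.41, beside 29.5% and 44.1% of all genes and a median of -0.17 over all genes. The 28 genes called with all libraries remained called in the same direction, and Bsg, Pdk3 and Pfkl were called lower in addition. The shNC differences of Hk1, Gpi1, Pfkp and Pgam1 shrank from 0.55 ± 0.20, 0.33 ± 0.12, 0.59 ± 0.17 and 0.66 ± 0.19 to 0.25 ± 0.07, 0.15 ± 0.05, 0.36 ± 0.10 and 0.41 ± 0.14 (log2, SE). When each library was centred on its median, the medians over all genes became -0.02 and -0.03 and the share of all genes with a positive difference moved from 41.9% to 48.5% in shNC and from 42.7% to 48.6% in shM5 cells, while the counts of the set were 21 and 7 (beside 31.1% and 34.2% of all genes), and 23 and 4 (beside 28.7% and 32.3%), with Bsg and Pdk3 added to the higher genes in shM5 cells. Fitted on only the 2 groups compared, the set had 17 higher and 6 lower in shNC cells, beside 20.5% and 34.7% of all genes, without Gpi1, Hk1, Pfkp, Pfkfb1 and Pfkfb3. In shM5 cells that fit gave 24 and 5, beside 29.0% and 42.5%, with Bsg, Pdk3 and Pfkl added to the higher genes and Pfkfb1 to the lower ones. Summed fibroblast markers were also higher in every TM4 library. The sum was led by Dcn (565 to 820 RPKM in TM4, 91.4 to 184 in C18-4) and Col1a2 (297 to 566 and 0.08 to 0.19). Acta2, Pdgfra and Pdgfrb were also higher in every TM4 library. Col1a1 ran from 131 to 291 RPKM in TM4 and from 287 to 386 in C18-4 libraries. Col3a1 in TM4 shNC replicates 1 and 2 was below every C18-4 library. The part of these markers in the line differences was not tested. In bulk libraries a lower level in every cell and expression in fewer cells cannot be told apart.

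The lactate carriers differed between the lines in opposite directions, and Slc16a3 had the largest line difference of the set on the log2(RPKM + 0.1) scale. By the ratio of means, which is unstable where a line is near 0, Aldoc exceeded it under shM5 (87.3-fold against 68.5-fold). Pdk4 exceeded Slc16a3 in this ratio under shNC with all libraries, with means of 0.0067 RPKM in C18-4 and 1.34 in TM4 cells. Under shM5, Pdk4 was at 0 in all C18-4 libraries. Slc16a3, the carrier typical of lactate-releasing cells, stood at 46.6, 46.0 and 54.9 RPKM in C18-4 shNC, 45.3, 42.7 and 31.1 in C18-4 shM5, 0.18, 0.20 and 0.54 in TM4 shNC and 0.75, 0.50 and 0.49 in TM4 shM5. Every TM4 library was below 1 RPKM, and the lowest C18-4 library was at 31.1 RPKM. The mean was 160.3-fold higher in C18-4 than in TM4 cells under shNC and 68.5-fold higher under shM5, and the TM4 minus C18-4 differences of log2(RPKM + 0.1) were -7.02 ± 0.29 (SE, adjusted p = 1.15e-09) and -5.87 ± 0.29 (SE, adjusted p = 5.87e-09). Without TM4 shNC replicate 3, the highest of its group, the shNC fold was 259 and the difference -7.40 ± 0.19. Slc16a1, the more widely expressed carrier, stood at 31.8, 31.1 and 34.99 RPKM in C18-4 shNC, 27.8, 28.2 and 29.0 in C18-4 shM5, 75.2, 73.7 and 53.6 in TM4 shNC and 59.3, 60.3 and 57.0 in TM4 shM5. It was higher in all TM4 libraries than in any C18-4 library, by 1.03 ± 0.11 (SE, adjusted p = 9.96e-06) in shNC (1.19 ± 0.06 without TM4 shNC replicate 3) and 1.05 ± 0.11 (SE, adjusted p = 8.44e-06) in shM5 cells. Slc16a3 was thus 60.0% ± 0.88 (SD, n = 3) of the summed level of both carriers in C18-4 shNC and 58.0% ± 5.47 in C18-4 shM5, but 0.50% ± 0.43 in TM4 shNC and 0.97% ± 0.24 in TM4 shM5.

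Bsg, the chaperone of both carriers, was abundant in both lines, at 445, 432 and 464 RPKM in C18-4 shNC, 421, 408 and 435 in C18-4 shM5, 402, 386 and 492 in TM4 shNC and 491, 495 and 473 in TM4 shM5. Its line difference missed the threshold in shNC (-0.07 ± 0.09 (SE, adjusted p = 0.466)) and in shM5 cells (0.21 ± 0.09 (SE, adjusted p = 0.0541)), and passed it in shNC cells without TM4 shNC replicate 3 (-0.18 ± 0.06 (SE, adjusted p = 0.0137)). Emb, the gene of embigin, another chaperone of these carriers, was lower in TM4 cells by 2.16 ± 0.16 (SE) on the log2 scale in shNC cells, and its estimate was -2.37 ± 0.10 (SE) without TM4 shNC replicate 3.

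Ldha, the dehydrogenase subunit that favours lactate, was the dominant lactate dehydrogenase gene with values in both lines. It stood at 493, 459.6 and 436 RPKM in C18-4 shNC, 441, 432 and 348 in C18-4 shM5, 861, 849.6 and 1578 in TM4 shNC and 1599.6, 1623 and 1688 in TM4 shM5. All TM4 libraries were above all C18-4 libraries, with log2 differences of 1.18 ± 0.20 (SE, adjusted p = 0.000267) in shNC and 2.02 ± 0.20 (SE, adjusted p = 3.24e-06) in shM5 cells. The shNC difference was 0.89 ± 0.10 without TM4 shNC replicate 3. Ldhb, the subunit of tissues that consume lactate, stood at 0.76, 0.48 and 1.33 RPKM in C18-4 shNC, 0.56, 0.47 and 0.26 in C18-4 shM5, 14.4, 13.2 and 21.8 in TM4 shNC and 25.3, 24.7 and 21.6 in TM4 shM5. Its log2 difference was 4.18 ± 0.32 (SE, adjusted p = 3.72e-07) in shNC (3.96 ± 0.34 without TM4 shNC replicate 3) and 5.54 ± 0.32 (SE, adjusted p = 2.69e-08) in shM5 cells. Ldhb was still a small part of the summed level of both subunits, 0.19% ± 0.10 in C18-4 shNC, 0.10% ± 0.03 in C18-4 shM5, 1.51% ± 0.14 in TM4 shNC and 1.44% ± 0.15 in TM4 shM5 (SD, n = 3).

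**Figure D2:**
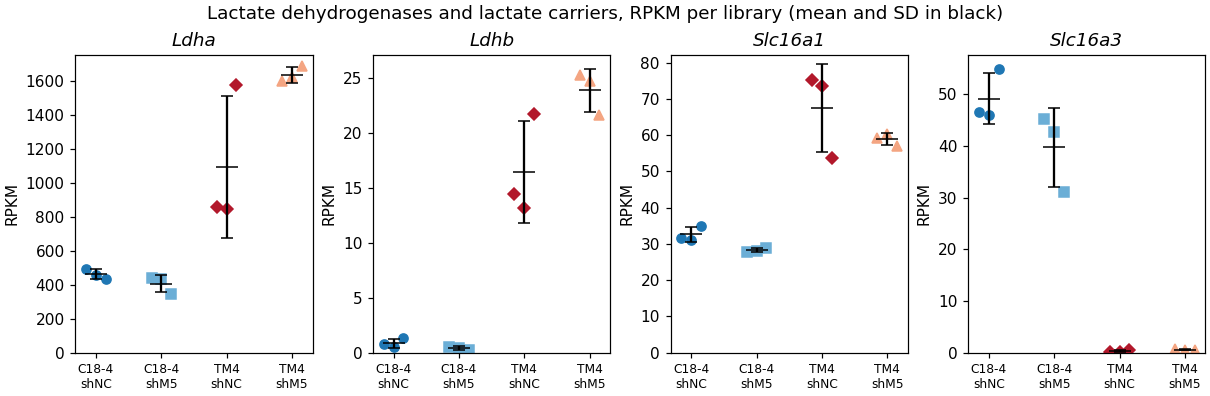
RPKM of Ldha, Ldhb, Slc16a1 and Slc16a3 in each library, from 0 on a linear axis, with the group mean and SD (n = 3) in black. Ldha, Ldhb and Slc16a1 are higher in every TM4 library than in any C18-4 library and Slc16a3 is the reverse, and TM4 shNC replicate 3 (Ldha 1578 RPKM) sits apart from the other TM4 shNC libraries (861 and 849.6).

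Glucose entry was higher in TM4 cells at all 4 tested genes in both treatments. Slc2a1, the basal glucose carrier (GLUT1), stood at 20.4, 20.9 and 29.4 RPKM in C18-4 shNC, 19.8, 20.9 and 17.2 in C18-4 shM5, 64.3, 62.5 and 137 in TM4 shNC and 114, 118 and 121 in TM4 shM5. The groups of the lines did not overlap, and the log2 difference was 1.82 ± 0.26 (SE, adjusted p = 6.99e-05) in shNC (1.44 ± 0.14 without TM4 shNC replicate 3) and 2.60 ± 0.26 (SE, adjusted p = 3.27e-06) in shM5 cells. Slc2a3, the high-affinity carrier GLUT3, was near the lowest listed values in C18-4 cells (0.02, 0.04 and 0.02 and 0.04, 0.06 and 0.03 RPKM) and stood at 3.75, 3.88 and 2.35 in TM4 shNC and 2.31, 2.08 and 2.42 in TM4 shM5, an adjusted p of 1.56e-09 and 6.38e-09, and 8.10e-10 in shNC cells without TM4 shNC replicate 3. Slc2a4, the insulin-responsive carrier, ran from 0.05 to 0.33 RPKM and was not tested. Slc2a1 made up 95.5% to 99.3% of the summed level of the 3 carriers by group mean.

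Hexokinase traps glucose in the cell. Hk1, the constitutive form, stood at 21.4, 21.7 and 24.0 RPKM in C18-4 shNC, 20.5, 20.2 and 20.7 in C18-4 shM5, 26.4, 26.6 and 50.05 in TM4 shNC and 47.4, 49.6 and 44.9 in TM4 shM5. Hk2, the inducible form, stood at 5.94, 6.25 and 6.76 RPKM in C18-4 shNC, 5.46, 6.04 and 3.94 in C18-4 shM5, 30.8, 30.8 and 25.8 in TM4 shNC and 25.0, 23.6 and 24.6 in TM4 shM5. Both were higher in TM4 cells, Hk1 by 0.55 ± 0.20 (SE, adjusted p = 0.0269) and Hk2 by 2.18 ± 0.14 (SE, adjusted p = 8.41e-08) in shNC cells, and by 1.20 ± 0.20 and 2.25 ± 0.14 in shM5 cells. The shNC difference of Hk2 was 2.27 ± 0.15 without TM4 shNC replicate 3. Hk2 was 22.0% ± 0.34 and 20.0% ± 3.6 (SD, n = 3) of the summed hexokinase level in C18-4 shNC and shM5 cells, and 34.1% ± 1.60 in TM4 shM5. In TM4 shNC it was 53.8%, 53.7% and 34.0% in replicates 1, 2 and 3, so replicate 3 lay with the shM5 libraries.

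Phosphofructokinase, the rate-setting step, was made up differently in the lines. Pfkl, the liver-type subunit, stood at 40.9, 41.0 and 37.7 RPKM in C18-4 shNC, 42.5, 43.4 and 30.3 in C18-4 shM5, 25.1, 21.4 and 53.5 in TM4 shNC and 51.0, 50.4 and 52.6 in TM4 shM5. The muscle-type subunit Pfkm stood at 23.2, 22.7 and 28.1 RPKM in C18-4 shNC, 24.2, 24.9 and 27.7 in C18-4 shM5, 11.6, 11.1 and 21.4 in TM4 shNC and 23.6, 25.8 and 22.3 in TM4 shM5. Pfkp, the platelet-type subunit, stood at 24.6, 23.6 and 31.4 RPKM in C18-4 shNC, 26.7, 27.6 and 26.2 in C18-4 shM5, 34.4, 33.3 and 54.1 in TM4 shNC and 53.5, 55.6 and 52.2 in TM4 shM5. Only Pfkp among these was higher in TM4 cells in both treatments, by 0.59 ± 0.17 (SE, adjusted p = 0.00886) and 0.998 ± 0.17 (SE, adjusted p = 0.000282), although the fit of only the 2 shNC groups did not call it (0.59 ± 0.22 (SE, adjusted p = 0.0538)). Pfkm was lower in TM4 than in C18-4 cells under shNC (-0.80 ± 0.21 (SE, adjusted p = 0.00504); -1.11 ± 0.11 without TM4 shNC replicate 3) and had -0.10 ± 0.21 (SE, adjusted p = 0.698) under shM5. Pfkl passed the threshold in neither treatment with all 12 libraries (-0.38 ± 0.27 (SE, adjusted p = 0.237) and 0.42 ± 0.27 (SE, adjusted p = 0.195)). All 3 TM4 shM5 values were above those of C18-4 shM5, and the fit of only these 2 groups called Pfkl higher in TM4 cells (0.42 ± 0.13 (SE, adjusted p = 0.0207)). Without TM4 shNC replicate 3, Pfkl was lower in TM4 shNC cells as well (-0.78 ± 0.14 (SE, adjusted p = 0.000387)). Pfkp was 29.0% and 29.5% of the summed level of the 3 subunits in C18-4 shNC and shM5 and 47.0% and 41.7% in TM4 shNC and shM5, and Pfkm was 27.0% and 28.3% in C18-4 and 16.6% and 18.5% in TM4 cells (means, n = 3).

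**Figure D3:**
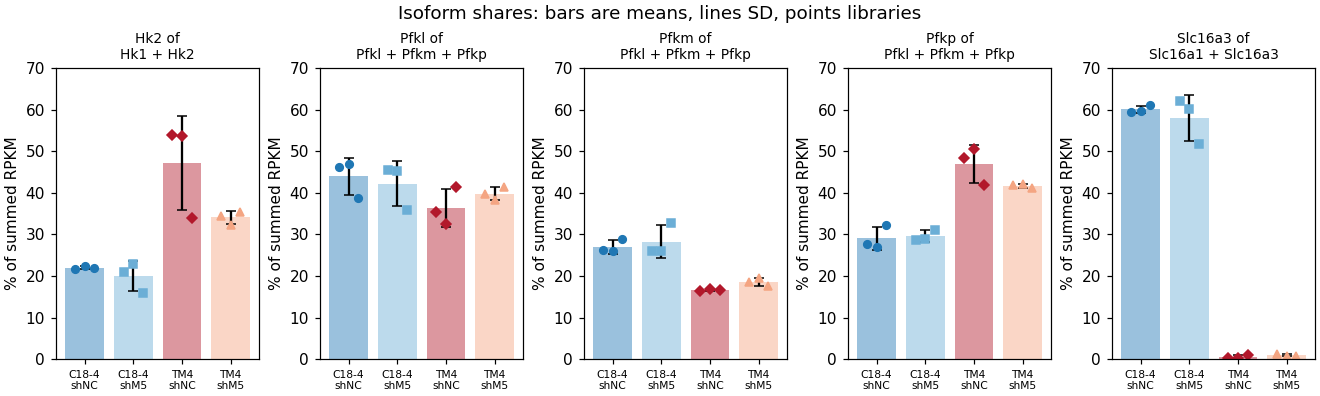
Share of 1 isoform in the summed RPKM of its family, in percent from 0, as the group mean (bar), SD (line, n = 3) and single libraries (points). Slc16a3 is at 60.0% and 58.0% in the C18-4 groups and at 0.50% and 0.97% in the TM4 groups, and Hk2 in TM4 shNC replicate 3 (34.0%) lies with TM4 shM5 instead of the other TM4 shNC libraries.

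The Pfkfb enzymes set the level of the main activator of phosphofructokinase, and none of the 4 exceeded 16.9 RPKM in a library. Pfkfb3, whose kinase activity far exceeds its phosphatase activity, stood at 6.34, 6.69 and 9.06 RPKM in C18-4 shNC, 7.13, 7.11 and 9.16 in C18-4 shM5, 16.6, 16.9 and 8.01 in TM4 shNC and 8.22, 8.32 and 8.30 in TM4 shM5. Its line difference was 0.84 ± 0.25 (SE, adjusted p = 0.0119) in shNC (1.19 ± 0.15 without TM4 shNC replicate 3) and 0.10 ± 0.25 (SE, adjusted p = 0.763) in shM5 cells. Pfkfb4, a form abundant in testis, stood at 1.40, 1.30 and 1.49 RPKM in C18-4 shNC, 1.38, 1.36 and 1.32 in C18-4 shM5, 0.55, 0.43 and 1.19 in TM4 shNC and 1.39, 1.54 and 1.13 in TM4 shM5. Pfkfb1, the liver and muscle form, stood at 2.66, 2.14 and 2.13 RPKM in C18-4 shNC, 3.15, 3.51 and 3.09 in C18-4 shM5, 0.66, 0.81 and 2.18 in TM4 shNC and 2.53, 2.70 and 2.45 in TM4 shM5. In shNC cells Pfkfb1, Pfkfb2 and Pfkfb4 were lower in TM4 than in C18-4 cells, by -1.04 ± 0.32, -0.54 ± 0.15 and -0.97 ± 0.27 on the log2 scale. These were -1.53 ± 0.14, -0.67 ± 0.13 and -1.35 ± 0.16 without TM4 shNC replicate 3. In shM5 cells none of the 4 passed the limma threshold (0 at an unadjusted p below 0.05), while the fit of only the 2 shM5 groups called Pfkfb1 lower in TM4 cells (-0.33 ± 0.11 (SE, adjusted p = 0.0248)). For all 4 genes, TM4 shNC replicate 3 lay nearer to the TM4 shM5 libraries than to the other TM4 shNC libraries.

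The aldolases also differed in opposite directions. Aldoc, the brain-type aldolase, stood at 4.92, 4.52 and 11.4 RPKM in C18-4 shNC, 4.14, 4.91 and 6.67 in C18-4 shM5, 0.09, 0.16 and 0.11 in TM4 shNC and 0.02, 0.09 and 0.07 in TM4 shM5, with log2 differences of -4.88 ± 0.33 (SE, adjusted p = 1.22e-07) and -5.06 ± 0.33 (SE, adjusted p = 8.50e-08). Aldoa, the main form, stood at 476, 462 and 504 RPKM in C18-4 shNC, 425, 416 and 390.1 in C18-4 shM5, 738, 707 and 1044 in TM4 shNC and 971, 994 and 1037 in TM4 shM5, and was higher in TM4 cells (0.77 ± 0.12 and 1.29 ± 0.12). With TM4 shNC replicate 3 left out, the shNC differences were -4.85 ± 0.38 for Aldoc and 0.59 ± 0.06 for Aldoa. Aldoc was at most 2.21% of the summed aldolase level in any library. Gpi1, which isomerises glucose phosphate, had group means from 175 to 265 RPKM and was higher in TM4 cells by 0.33 ± 0.12 and 0.55 ± 0.12. Tpi1, which interconverts the triose phosphates, had group means from 444 to 747 RPKM and passed the threshold in shM5 cells (0.75 ± 0.14 (SE, adjusted p = 0.000775)) but not in shNC cells (0.22 ± 0.14 (SE, adjusted p = 0.2)), where the estimate without TM4 shNC replicate 3 was 0.0049 ± 0.07 (SE).

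All 7 tested genes of the second phase, from Gapdh to Pkm, were higher in TM4 cells in both treatments. Gapdh, which oxidises the triose phosphate, stood at 3733, 3615 and 3545 RPKM in C18-4 shNC, 3224, 3162 and 2959.8 in C18-4 shM5, 5333, 5194 and 7267 in TM4 shNC and 6042, 6145 and 6728 in TM4 shM5. Pgk1, the first ATP-making step, stood at 461, 437 and 443 RPKM in C18-4 shNC, 392, 381 and 361 in C18-4 shM5, 702, 728 and 955 in TM4 shNC and 875, 831 and 990.0 in TM4 shM5. Pkm, pyruvate kinase of most tissues, stood at 783, 772 and 621 RPKM in C18-4 shNC, 732, 739 and 644 in C18-4 shM5, 1132, 1095 and 1570.2 in TM4 shNC and 1487, 1476 and 1571 in TM4 shM5. The lines did not overlap for any of these, and the log2 differences in shNC and shM5 cells were 0.69 ± 0.11 and 1.02 ± 0.11 for Gapdh, 0.82 ± 0.11 and 1.25 ± 0.11 for Pgk1 and 0.79 ± 0.14 and 1.10 ± 0.14 for Pkm. Pgam1, phosphoglycerate mutase, stood at 412, 398 and 309 RPKM in C18-4 shNC, 451, 441 and 333 in C18-4 shM5, 497, 486 and 821 in TM4 shNC and 832, 823 and 877 in TM4 shM5 (0.66 ± 0.19 and 1.06 ± 0.19). Leaving out TM4 shNC replicate 3 gave shNC differences of 0.54 ± 0.08 for Gapdh, 0.68 ± 0.08 for Pgk1 and 0.63 ± 0.10 for Pkm. The muscle form of the mutase, Pgam2, ran from 0.15 to 1.33 RPKM and was not tested.

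Of the enolases, Eno1 led, with group means of 581 ± 59.9 RPKM in C18-4 shNC, 560.1 ± 34.1 in C18-4 shM5, 963 ± 142 in TM4 shNC and 1115 ± 49.6 in TM4 shM5 (SD, n = 3). Eno2, the neuronal form, stood at 8.17, 8.29 and 17.8 RPKM in C18-4 shNC, 6.54, 6.64 and 10.6 in C18-4 shM5, 32.6, 31.3 and 35.6 in TM4 shNC and 29.8, 31.2 and 30.2 in TM4 shM5. Replicate 3 of the C18-4 groups was the highest of its group. Eno3, the muscle form, stood at 41.8, 35.3 and 40.4 RPKM in C18-4 shNC, 38.1, 37.2 and 34.7 in C18-4 shM5, 84.0, 80.3 and 97.3 in TM4 shNC and 100.3, 103 and 102 in TM4 shM5. All were higher in TM4 cells, Eno2 by 1.63 ± 0.27 and 1.96 ± 0.27 and Eno3 by 1.15 ± 0.09 and 1.47 ± 0.09 on the log2 scale. When TM4 shNC replicate 3 was left out, the shNC differences were 0.61 ± 0.09 for Eno1, 1.58 ± 0.30 for Eno2 and 1.07 ± 0.08 for Eno3.

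At the branch to the mitochondria, the kinases differed in both directions. Pdk1, a kinase induced under hypoxia, stood at 3.25, 3.63 and 6.21 RPKM in C18-4 shNC, 3.0, 2.60 and 2.12 in C18-4 shM5, 19.0, 19.6 and 35.7 in TM4 shNC and 33.0, 33.6 and 36.3 in TM4 shM5, with log2 differences of 2.47 ± 0.27 (SE, adjusted p = 8.25e-06) and 3.70 ± 0.27 (SE, adjusted p = 2.23e-07). Pdk4, the kinase induced by fasting, was listed at 0 in 5 of the 6 C18-4 libraries and at 0.02 in the other, and stood at 1.25, 1.36 and 1.41 RPKM in TM4 shNC and 2.19, 1.86 and 1.33 in TM4 shM5, higher in TM4 cells at an adjusted p of 7.65e-09 and 2.74e-09. Pdk2 went the other way, with 3.64, 3.67 and 4.38 RPKM in C18-4 shNC, 2.21, 2.32 and 4.28 in C18-4 shM5, 0.72, 0.46 and 1.18 in TM4 shNC and 1.29, 1.13 and 1.05 in TM4 shM5 (-2.25 ± 0.30 (SE, adjusted p = 4.44e-05) and -1.21 ± 0.30 (SE, adjusted p = 0.00415)). Pdk3 was the most abundant kinase in both lines, with group means from 42.2 to 50.3 RPKM, and was not called, although without TM4 shNC replicate 3 it was lower in TM4 shNC cells (-0.17 ± 0.06 (SE, adjusted p = 0.0243)). Pdha1, the alpha subunit of the dehydrogenase, stood at 58.4, 58.9 and 58.4 RPKM in C18-4 shNC, 60.3, 59.3 and 60.1 in C18-4 shM5, 77.4, 77.8 and 87.8 in TM4 shNC and 81.0, 78.6 and 84.0 in TM4 shM5, and was higher in TM4 cells by 0.47 ± 0.07 and 0.44 ± 0.07. In shNC cells without TM4 shNC replicate 3 the differences were 2.18 ± 0.23 for Pdk1, -2.56 ± 0.27 for Pdk2, 3.72 ± 0.22 for Pdk4 and 0.41 ± 0.05 for Pdha1. Pdhb, the beta subunit, had group means from 58.8 to 78.3 RPKM and was lower in TM4 shM5 than in C18-4 shM5 cells (-0.41 ± 0.09 (SE, adjusted p = 0.00147)).

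**Figure D4:**
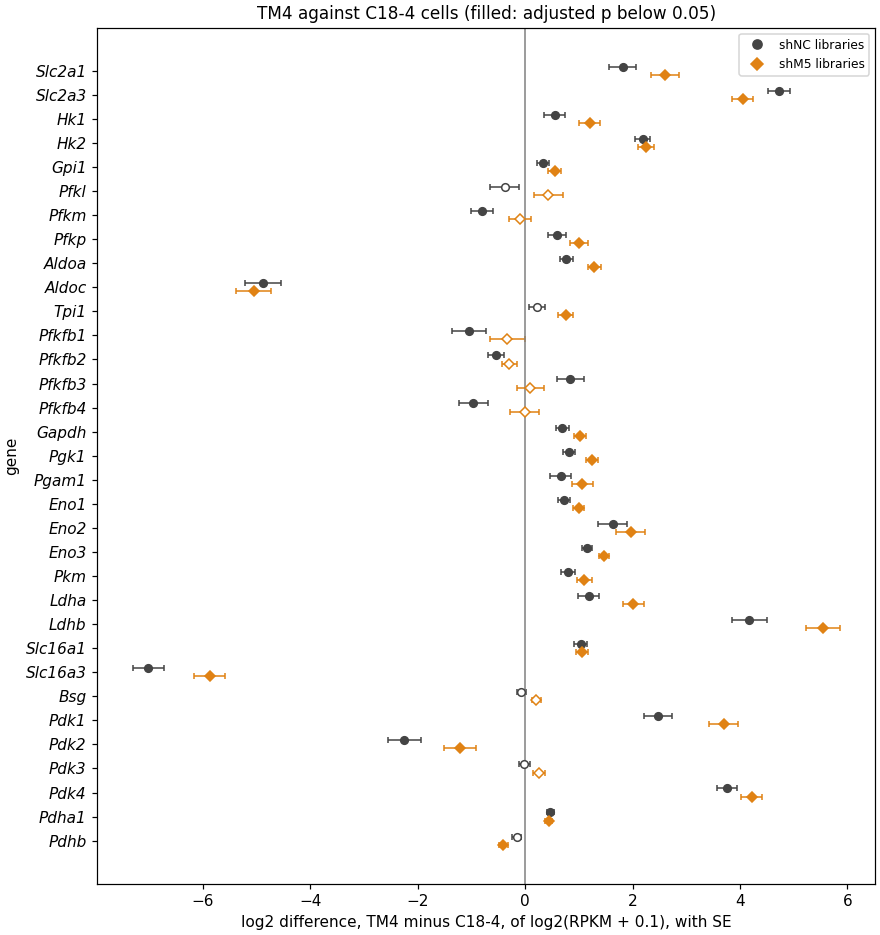
TM4 minus C18-4 difference of log2(RPKM + 0.1) with its SE for the 33 genes tested, in shNC (circles) and shM5 libraries (diamonds), filled where the adjusted p is below 0.05. Glucose entry and the second phase lie to the right of 0, Slc16a3 and Aldoc lie far to the left, and the Pfkfb genes are near 0 in shM5 cells.

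The effect of shM5 in TM4 cells depended on TM4 shNC replicate 3. With all 6 libraries, 31 genes of the set were tested and 0 were called in either direction by limma (8 at an unadjusted p below 0.05, 25.8% beside 26.0% of all genes), as for all 11016 genes, of which 0% were called higher and 0% lower. The estimates of 25 genes were positive and 6 negative, with a median of 0.27 against 0.04 over all genes. The groups did not overlap for 5 genes that were higher in shM5 (Eno3, Ldha, Pfkfb1, Pfkm and Pgam1), beside 15.7% of all genes, and for 2 that were lower (Eno2 and Hk2), beside 11.1%. With 3 libraries against 3 an exact permutation test of a single gene cannot give a p below 0.1.

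Without TM4 shNC replicate 3, 24 of 32 genes of the set were called higher and 5 lower in TM4 shM5, beside 36.5% and 30.9% of all 11026 genes. Leaving out any other TM4 library gave 0 calls in the set and 0 among all genes tested. The 5 lower genes were Hk2, Pdhb, Pfkfb3, Slc16a1 and Slc2a3. Ldha was 0.64 ± 0.24 (SE, adjusted p = 0.192) with all libraries and 0.94 ± 0.04 (SE, adjusted p = 1.64e-06) without that library. Slc2a1 moved from 0.52 ± 0.30 (SE, adjusted p = 0.253) to 0.89 ± 0.04 (SE, adjusted p = 2.52e-06). Pfkfb3 moved from -0.66 ± 0.29 (SE, adjusted p = 0.192) to -1.01 ± 0.06 (SE, adjusted p = 4.78e-06), the largest negative estimate of the set. Pfkfb1 had the largest positive estimate, 1.19 ± 0.41 (SE, adjusted p = 0.192) with and 1.68 ± 0.15 (SE, adjusted p = 4.05e-05) without it. For the lactate carrier Slc16a1 the estimates were -0.18 ± 0.14 (SE, adjusted p = 0.362) and -0.34 ± 0.04 (SE, adjusted p = 0.000264). The summed levels of the 8 amino acid stress genes and of the Sertoli cell markers differed in the same libraries. The fibroblast or peritubular markers summed to 1398, 1385 and 1759 RPKM in TM4 shNC and 1996, 2033 and 1549 in TM4 shM5, with Acta2 at 66.4, 63.3 and 139.8 and 144, 142 and 194 and Col3a1 at 60.6, 59.1 and 149.9 and 149, 152 and 122. The part of these genes in the differences was not tested.

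In C18-4 cells no gene of the set was called between shM5 and shNC with all libraries and no block. Of 31 genes tested, 0 were called by limma (6 at an unadjusted p below 0.05, 19.4% beside 12.3% of all genes), beside 0.293% of all 11611 genes called higher and 0.293% lower. The median estimate was -0.10 against 0.00 over all genes, with 22 negative and 9 positive. Groups did not overlap for 3 genes higher in shM5 (Gpi1, Pdha1 and Pfkfb1), beside 9.30% of all genes, and for 8 lower (Aldoa, Gapdh, Hk1, Pdk1, Pdk3, Pgk1, Slc16a1 and Slc16a3), beside 9.55%. Gapdh was -0.22 ± 0.08 (SE, adjusted p = 0.303), Pgk1 -0.24 ± 0.07 (SE, adjusted p = 0.195) and Aldoa -0.23 ± 0.07 (SE, adjusted p = 0.246). The estimates of largest size were those of Ldhb, -0.80 ± 0.40 (SE, adjusted p = 0.499), and Pdk1, -0.70 ± 0.26 (SE, adjusted p = 0.346). Of the other lactate genes, Ldha was -0.19 ± 0.11 (SE, adjusted p = 0.556), Slc16a3 -0.32 ± 0.15 (SE, adjusted p = 0.471), Slc16a1 -0.20 ± 0.07 (SE, adjusted p = 0.342) and Bsg -0.08 ± 0.06 (SE, adjusted p = 0.699). Fibroblast or peritubular markers summed to 604 to 699.8 RPKM in C18-4 shM5 and 501 to 564 in C18-4 shNC, and their part in these differences was not tested.

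In C18-4 cells, over all genes tested, same-numbered libraries shifted in common from their group means. The fit was therefore also made with the replicate number as a block. Over the 31 genes of the set, the number 3 libraries did not lie together. C18-4 shNC replicate 3 lay 0.58 log2 units (root mean square) from C18-4 shM5 replicate 3, against 0.32 over all genes. Over the set it lay 0.42 and 0.46 from C18-4 shNC replicates 1 and 2. The blocked fit called 1 gene of the set higher, Pfkfb1, and 4 lower, Aldoa, Eno2, Gapdh and Pgk1, beside 5.21% of all genes called higher and 6.73% lower. The blocked estimates were 0.48 ± 0.13 (SE, adjusted p = 0.0469) for Pfkfb1, -0.22 ± 0.04 (SE, adjusted p = 0.0133) for Gapdh, -0.24 ± 0.04 (SE, adjusted p = 0.0116) for Pgk1, -0.23 ± 0.05 (SE, adjusted p = 0.0311) for Aldoa and -0.46 ± 0.10 (SE, adjusted p = 0.0253) for Eno2. Ldha (-0.19 ± 0.05 (SE, adjusted p = 0.0524)) and Slc16a1 (-0.20 ± 0.05 (SE, adjusted p = 0.0505)) missed the threshold. No estimate of a called gene reached 0.5 on the log2 scale in size.

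**Figure D5:**
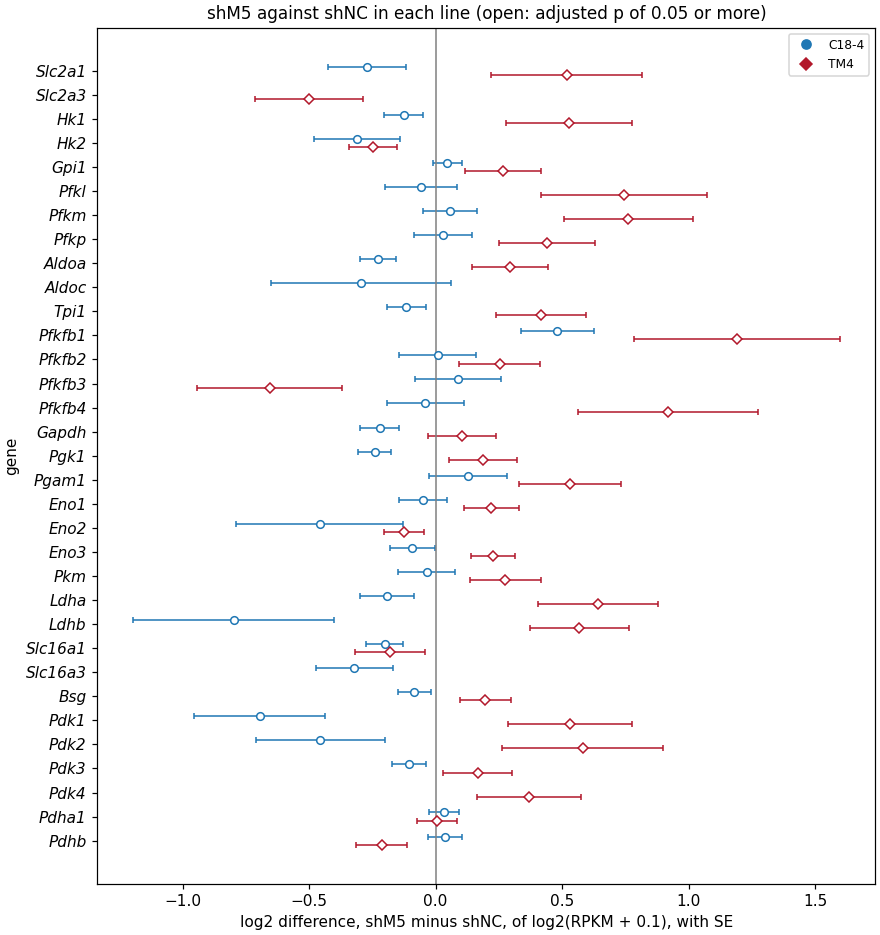
shM5 minus shNC difference of log2(RPKM + 0.1) with its SE for the genes tested in C18-4 (circles) and TM4 cells (diamonds), from the fits with all libraries and no block. All symbols are open because no adjusted p was below 0.05, the TM4 estimates lie mostly to the right of 0 (25 of 31) and the C18-4 estimates mostly to the left (22 of 31).

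The effects of shM5 in the lines were compared by an interaction term fitted over the 12 libraries. Of 33 genes, 0 were called by limma (14 at an unadjusted p below 0.05, 42.4% beside 20.9% of all genes), beside 0.0680% of all genes called with a higher and 0.0340% with a lower effect in TM4 cells. The median interaction was 0.40 against 0.04 over all genes, with 28 positive and 5 negative. Ldha was 0.83 ± 0.28 (SE, adjusted p = 0.193) and Pdk1 1.23 ± 0.38 (SE, adjusted p = 0.182). Without TM4 shNC replicate 3, 23 genes were called with a higher and 3 with a lower effect, beside 21.5% and 16.4% of all genes, with Ldha at 1.13 ± 0.13 (SE, adjusted p = 0.000171) and Pfkfb3 at -1.10 ± 0.21 (SE, adjusted p = 0.00233).

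Genes around the pathway were counted from further lists, and values of single list genes are with all libraries unless stated. None of the lists held a call for shM5 in either line or for the interaction in the fits with all libraries and no block. With the replicate block in C18-4 cells, beside 5.21% of all genes called higher and 6.73% lower, 5 of 11 tested hypoxia-response genes outside glycolysis were lower in shM5 (Bnip3, Egln1, Egln3, Mxi1 and Ndrg1) and 0 higher. Bnip3, a mitochondrial protein of the BCL2 family, stood at 28.9, 26.0 and 43.0 RPKM in C18-4 shNC and 16.6, 16.0 and 16.9 in C18-4 shM5, with a blocked estimate of -0.94 ± 0.11 (SE, adjusted p = 0.00342) and an adjusted p of 0.0891 without the block. The other lists held 3 higher calls with the block (Atf3, Emb and Tigar) and 4 lower (Slc2a8, Pgls, Mpc1 and Hif1a). The TM4 effect of shM5 without TM4 shNC replicate 3 passed the threshold for 8 hypoxia-response genes higher and 2 lower (Ndrg1 and Vegfa). For amino acid stress genes it gave 0 higher and 8 lower, beside 36.5% and 30.9% of all genes. Of 8 tested regulators of glucose metabolism, 0 were higher and 5 lower (Hif1a, Mlxip, Myc, Ppargc1a and Txnip). The counts were 5 and 2 for further isoforms and carriers, 3 and 3 for the pentose phosphate pathway, and 1 and 2 for pyruvate entry.

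Between the lines, 7 of the 11 hypoxia-response genes were higher and 1 lower in TM4 shNC cells, and 9 and 1 in shM5 cells, beside 25.6% and 40.0% of all genes in shNC and 24.2% and 37.0% in shM5 cells. These shares of all genes apply to each list that follows. Without TM4 shNC replicate 3 (29.5% and 44.1% of all genes) the shNC counts were 7 and 2 for hypoxia-response genes, 6 and 2 for regulators, 4 and 3 for the pentose phosphate pathway, 4 and 3 for pyruvate entry, 2 and 3 for further isoforms and carriers, and 7 and 0 for amino acid stress genes. Ankrd37 was higher by 2.51 ± 0.15 and 3.37 ± 0.15 (SE, log2), and Egln3, a prolyl hydroxylase that marks HIF for decay, was lower by the estimates -2.44 ± 0.13 and -1.83 ± 0.13. Of 10 tested regulators of glucose metabolism, 6 were higher and 2 lower in shNC cells, and 5 and 2 in shM5 cells. Epas1, the gene of HIF-2 alpha, stood at 3.18, 3.73 and 3.88 RPKM in C18-4 shNC and 0, 0.01 and 0 in TM4 shNC. Hif1a, the gene of HIF-1 alpha, went the other way at higher levels. It stood at 63.5, 63.4 and 76.5 RPKM in C18-4 shNC and 212, 215 and 145 in TM4 shNC. Ppargc1a, the coactivator of mitochondrial genes, was listed at 0 in every C18-4 library and at 2.52, 2.50 and 1.57 RPKM in TM4 shNC.

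Of 7 pentose phosphate genes, 3 were higher and 2 lower in TM4 shNC cells, and 3 and 1 in shM5 cells. Transketolase (Tkt) was higher by 1.16 ± 0.07 and G6pdx, the entry enzyme of that pathway, by 1.33 ± 0.17 in shNC cells, while Rpia, the ribose phosphate isomerase, was -0.98 ± 0.18. Of 9 genes of pyruvate entry, 3 were higher and 3 lower in shNC cells, and 5 and 2 in shM5 cells. Pdp1, a phosphatase that reactivates pyruvate dehydrogenase, was higher by 1.23 ± 0.22, and Pdhx, a structural subunit of the complex, was -1.09 ± 0.10. Of 7 tested further isoforms and carriers, 2 were higher and 2 lower in each treatment. Of the 8 amino acid stress genes, 2 were higher in TM4 shNC cells, and 1 was higher and 4 were lower in shM5 cells. With number 3 left out of every group compared, the shM5 counts were 1 higher and 0 lower. In that fit 5984 of all 11767 genes were called in either direction.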

How the data were processed

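The authors made libraries from oligo(dT)-selected mRNA, aligned the reads to reference genes by means of SOAPaligner (2.20) and converted the read number of each gene to RPKM. The deposited values are these RPKM, with 2 decimals. Genome build and annotation version are not given in the sources used here. RPKM holds no read numbers, so counting error is unknown and the read-based test of the authors (DEGseq) was not applied.

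Groups and replicate numbers were taken from the sample labels. log2(RPKM + 0.1) was fitted with limma 3.58.1 (R 4.3.3; eBayes with trend) over genes that averaged 0.5 RPKM or more in the libraries fitted, and p-values were adjusted by Benjamini-Hochberg over all genes tested, with calls at an adjusted p below 0.05. A difference on this scale understates changes of low genes. Each line was fitted on its own for shM5, and all 12 libraries together for the lines and the interaction. The script was tested on simulated data. Members and lists were chosen with earlier results of these data known. Values in every library are given for the transport, rate-setting, lactate and pyruvate genes and for any other member called with a log2 difference of at least 1 in size. Of the further lists, up to 3 called genes with the largest estimates qualified, and some of these are described. Values of Hif1a are given in addition, beside those of Epas1.

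Over all genes tested, deviations of same-numbered libraries from their group means correlated at 0.439, 0.409 and 0.631 in C18-4 cells. In TM4 cells, which share only a number, these were 0.073, 0.049 and 0.127. Numbers 1 and 2 of the C18-4 groups correlated almost as well across numbers (0.341 and 0.345). Number 3 correlated negatively with them (-0.467 to -0.514). The shared shift thus sets number 3 apart, and pairing of 1 with 1 and 2 with 2 is an assumption of the block. Promoters are from RefSeq, and shared sequence was counted in GENCODE M21 with Python 3.11.15. Alternatives were a pseudocount of 1, no filter on low values, median centring, the study's threshold (FDR of 0.001 and absolute log2 of 1), eBayes without trend, another set of libraries in the fit, a replicate block and leaving out libraries.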

Additional observations from a re-analysis of the deposited data

How the results depend on the processing

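RPKM without read numbers limits what can be said of genes near 0, such as Slc2a3 and Pdk4 in C18-4 cells. With the replicate block, the shM5 calls in C18-4 cells went from 0 to 1 higher and 4 lower; in TM4 cells, where same-numbered libraries share only a number, and in the interaction the block gave 0 calls, and it changed no count for the line comparisons. Leaving out 1 library at a time gave 0 to 24 genes higher and 0 to 5 lower for shM5 in TM4 cells, and 0 to 23 higher and 0 to 3 lower for the interaction, and the upper values are those without TM4 shNC replicate 3. With number 3 left out of every group compared, the counts were 3 higher and 6 lower in C18-4 cells (beside 12.8% and 13.4% of all genes), 25 and 5 in TM4 cells (beside 39.9% and 32.8%), and 26 and 5 for the interaction (beside 33.2% and 26.6%). At the threshold of the study, the line comparison gave 10 higher and 3 lower in shNC cells, and 16 and 2 in shM5 cells. Of all 11773 genes, 3074 were called in either direction in shNC cells and 2830 in shM5 cells. The stricter threshold itself sets these counts. The cause of the other changes was not tested. No estimate changed direction among the single values of called genes. Under the alternatives other than the study's threshold, 674 of these values kept their call and 15 lost it. Those that lost it were Hk1, Gpi1, Pfkp, Pfkfb1, Pfkfb3 and Pgam1 in shNC cells and Pdk2 in shM5 cells. The median of the set in shNC cells moved to 0.41 without TM4 shNC replicate 3.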
